A study of Mus musculus with 4 samples.

Results

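Heat shock chaperones of the cytosol and of mitochondria were examined in sorted splenic CD8 T cells of mice given the dioxin TCDD or its solvent. The list held 10 genes: Hspa1a, Hspa1b, Hspa8, Hsp90aa1, Hsp90ab1, Dnaja1, Dnajb1, Hsph1, Hspd1 and Hspe1. Members were the probe sets that the platform annotation assigns to one of these genes alone. This gave 20 of the 22626 probe sets tested, for 9 genes of the list and of 12393 genes measured by a probe set of their own. No probe set was named for Hsp90ab1, which is not analysed here. Where a gene had several probe sets, the one with the highest mean over the 4 arrays is called its main probe set.

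The exposed mice were female C57BL/6 animals aged 8 to 12 weeks that received TCDD intraperitoneally at 10 µg/kg (2 arrays, TCDD 1 and TCDD 2). The controls were mice of the same sex, strain and age that received DMSO by the same route (2 arrays, DMSO 1 and DMSO 2). Spleens were taken after 24 h in both groups, and CD8 T cells were sorted to a purity above 99%. The design text speaks of 4 mice for a group with pooled cell suspensions. Whether each array had a pool of its own is not stated, so p-values cover only the spread between arrays, which may be technical. TCDD is a persistent ligand of the aryl hydrocarbon receptor (AHR), and the study asked what exposure does to these cells.

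Heat shock proteins are chaperones that bind unfolded or newly made proteins and help them fold. HSP70 proteins bind short exposed stretches of a client, J-domain proteins deliver clients and stimulate the ATPase of HSP70, nucleotide exchange factors reset the cycle, and HSP90 acts on clients at a later stage of folding. The unliganded AHR is itself a client of cytosolic HSP90, which holds it in a form able to bind ligand. In mitochondria HSP60 and HSP10 form a folding chamber. Heat and other stress activate the transcription factor HSF1, which binds heat shock elements, inverted repeats of the unit GAA, and strongly raises Hspa1a and Hspa1b, while Hspa8 is made constitutively.

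Promoter sequences were read from RefSeq windows of mouse build GRCm38.p6, which span 250 bases before to 50 bases after a gene's start. Of the 10 genes, 7 had such a window. Hspa8, Hsp90aa1 and Hsp90ab1 had none. A pair of inverted units was searched as GAANNTTC or TTCNNGAA, each of which reads the same on both strands, and overlapping matches were counted separately. Only exact units were matched, so units with a changed base were neither counted nor marked. Of 32851 windows of this length, 15.1% held at least 1 such pair. A run of 3 alternating units, GAANNTTCNNGAA on one strand or TTCNNGAANNTTC on the other, was held by 0.603%. Hspa1a and Hspa1b, the neighbouring inducible HSP70 genes of chromosome 17, are shown whole upstream of the start because their probe sets carried the largest differences among the chaperones. Capitals mark the matches, and both stretches lie on the minus strand, at chr17:34972157-34972406 and chr17:34959239-34959488.
Hspa1a: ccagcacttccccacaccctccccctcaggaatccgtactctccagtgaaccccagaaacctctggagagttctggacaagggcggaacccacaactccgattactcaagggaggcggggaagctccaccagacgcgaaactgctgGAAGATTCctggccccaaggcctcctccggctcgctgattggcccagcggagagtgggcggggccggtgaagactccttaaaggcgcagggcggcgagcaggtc
Hspa1b: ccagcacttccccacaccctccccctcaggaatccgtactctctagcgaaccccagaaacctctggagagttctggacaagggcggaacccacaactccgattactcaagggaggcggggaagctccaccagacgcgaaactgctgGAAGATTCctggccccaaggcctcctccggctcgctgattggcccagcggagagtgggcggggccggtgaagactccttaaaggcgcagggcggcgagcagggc

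The windows of Hspa1a and Hspa1b were identical at 296 of 300 positions. Counted from 1 at the 5′ end of the window, with the Hspa1a base first, they differed by C44T, T47C, T249G and C276T. Each held 1 pair of units, GAAGATTC, whose first base lay 104 bases before the start, and no run of 3 units. For the other chaperones 30 bases around the matches upstream of the start are shown, since these members are set against Hspa1a and Hspa1b. The stretch of Dnaja1 lies at chr4:40722333-40722362 on the plus strand, that of Hsph1 at chr5:149636351-149636380 on the minus strand, and those of Hspd1 and Hspe1 at chr1:55088053-55088082, on the minus and the plus strand.
Dnaja1: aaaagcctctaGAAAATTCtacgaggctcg
Hsph1: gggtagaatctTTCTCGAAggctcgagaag
Hspd1: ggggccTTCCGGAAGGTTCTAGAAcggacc
Hspe1: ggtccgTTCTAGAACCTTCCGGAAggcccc

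Hspd1 and Hspe1, the mitochondrial HSP60 and HSP10 genes, lie head to head, and the stretches printed for them are the same bases read from either strand. The shared stretch held 3 overlapping pairs, which form 2 runs of 3 units, and the other of the 2 Hspd1 windows held none. Hsph1 held 3 pairs in each of its 2 windows, with 1 run of 3 units just after the start. Dnaja1 held 1 pair in the most upstream of its 3 windows, and neither window of Dnajb1 held one. These matches describe letters in the windows and no binding was measured here. Since inexact units were not searched, the counts do not rank the promoters by their heat shock elements.

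Expression is given as the deposited log2 RMA value of a probe set, which has no true zero. Over the 9 main probe sets, 7 were lower and 2 higher on average in TCDD cells than in DMSO cells, where 45.6% of the main probe sets of all genes were lower. The median difference was −0.155, against 0.01 over all genes. It was −0.52 over the 8 genes left when probe sets with the suffixes _x_at, _s_at or _a_at were removed. That filter reads Hspa1b, Hspa8, Hsp90aa1 and Hspe1 from probe sets other than their main ones. The median over all genes was not taken under it, so −0.52 has no value to be set against. For 4 of the 9 each TCDD array was below each DMSO array, namely Hspa1a, Hspa1b, Hsph1 and Hspd1, where this held for 12.0% of all main probe sets. Each TCDD array was above each DMSO array for 1, Hspa8, against 12.9% of all main probe sets. In either direction the groups did not overlap for 5 of the 9, against 24.9%, and they overlapped for Hsp90aa1, Dnaja1, Dnajb1 and Hspe1. Hspa1a and Hspa1b are near-identical genes whose probe sets are not independent of each other. Counts that include both take them as 2 separate genes. No probe set on the array passed limma with Benjamini-Hochberg adjustment at 0.05 (0 of 22626, or 0%; lowest adjusted p = 0.9973), the chaperones included. At an unadjusted limma p under 0.05 there were 439 probe sets, or 1.94%, of which 1 was a chaperone, the Hspa8 probe set 1431182_at. The smallest two-sided p that an exact permutation test allows with 2 arrays in each group is 0.3333, so none was made. In RNA from a sorted population, fewer cells of a kind and less RNA per cell cannot be told apart.

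**Figure D1:**
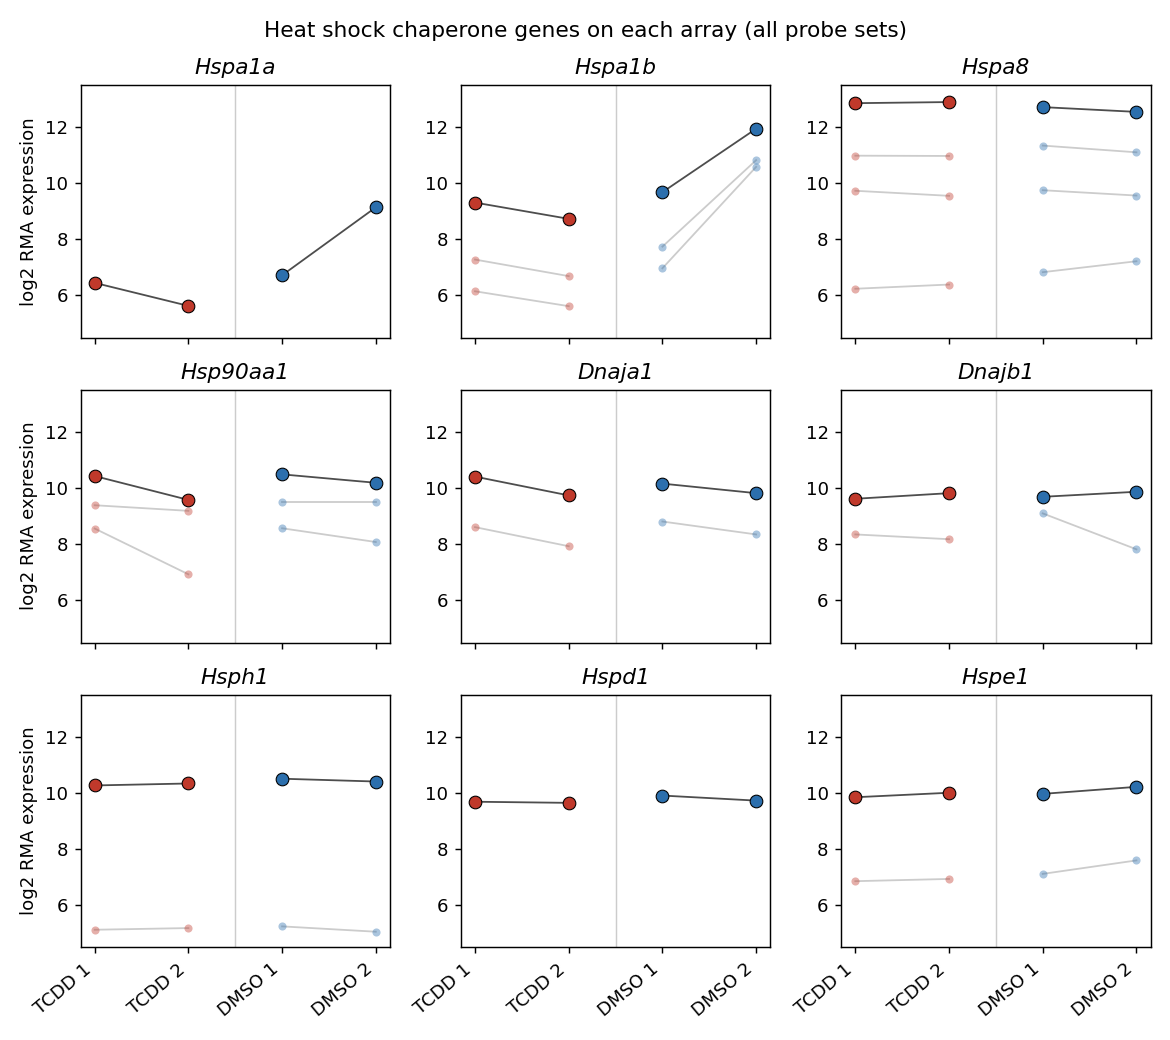
Expression of each chaperone gene on the 4 arrays (y axis, log2 RMA expression; x axis, TCDD 1 and 2 in red, then DMSO 1 and 2 in blue). Large outlined points are the main probe set, small pale points the other probe sets, and lines join the arrays of a group. Hspa1a and Hspa1b are far higher in DMSO 2 than elsewhere, at 9.14 and 11.94 for their main probe sets, while the main probe sets of the other genes vary far less between arrays.

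Hspa1a encodes one of the stress-inducible HSP70 proteins. Its only probe set, 1452388_at, measured 6.45 in TCDD 1 and 5.63 in TCDD 2, against 6.72 in DMSO 1 and 9.14 in DMSO 2. The TCDD values were both lower, but TCDD 1 lay close to DMSO 1, and DMSO 2 lay far above the other arrays. The means were 6.04 ± 0.58 in TCDD cells and 7.93 ± 1.71 in DMSO cells (SD, n = 2 each). The difference of −1.89, a 3.71-fold lower signal, had 95% limits of −4.07 and 0.29 and did not pass limma (adjusted p = 0.9973).

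Hspa1b encodes a nearly identical HSP70 protein, so signal from the pair of genes may not be fully separable by hybridisation. Its main probe set, 1452318_a_at, measured 9.31 in TCDD 1 and 8.73 in TCDD 2, against 9.68 in DMSO 1 and 11.94 in DMSO 2. The probe set 1427127_x_at measured 7.28 and 6.69 in the TCDD arrays, against 7.74 and 10.82 in the DMSO arrays. The probe set 1427126_at measured 6.15 and 5.62 in the TCDD arrays, against 6.97 and 10.58 in the DMSO arrays. All 3 probe sets and that of Hspa1a put the arrays in the same order, with TCDD 2 lowest, then TCDD 1, DMSO 1 and DMSO 2. These probe sets target a pair of near-identical genes on the same 4 RNAs and are not independent of each other.

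The differences of the Hspa1b probe sets were −1.79 (95% limits −3.79 and 0.21), −2.295 (−4.97 and 0.38) and −2.89 (−6.00 and 0.22), in the order above. Among all 22626 probe sets, those of Hspa1b were at ranks 5, 2 and 1, in the order above, for the size of the difference towards lower values in TCDD cells, and that of Hspa1a was at rank 4. None passed limma (adjusted p = 0.9973 for each). The DMSO arrays differed from each other by more than the groups did. DMSO 2 exceeded DMSO 1 by 2.42 for Hspa1a, a 5.35-fold gap, and by 2.26, 3.08 and 3.61 for the probe sets of Hspa1b.

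**Figure D2:**
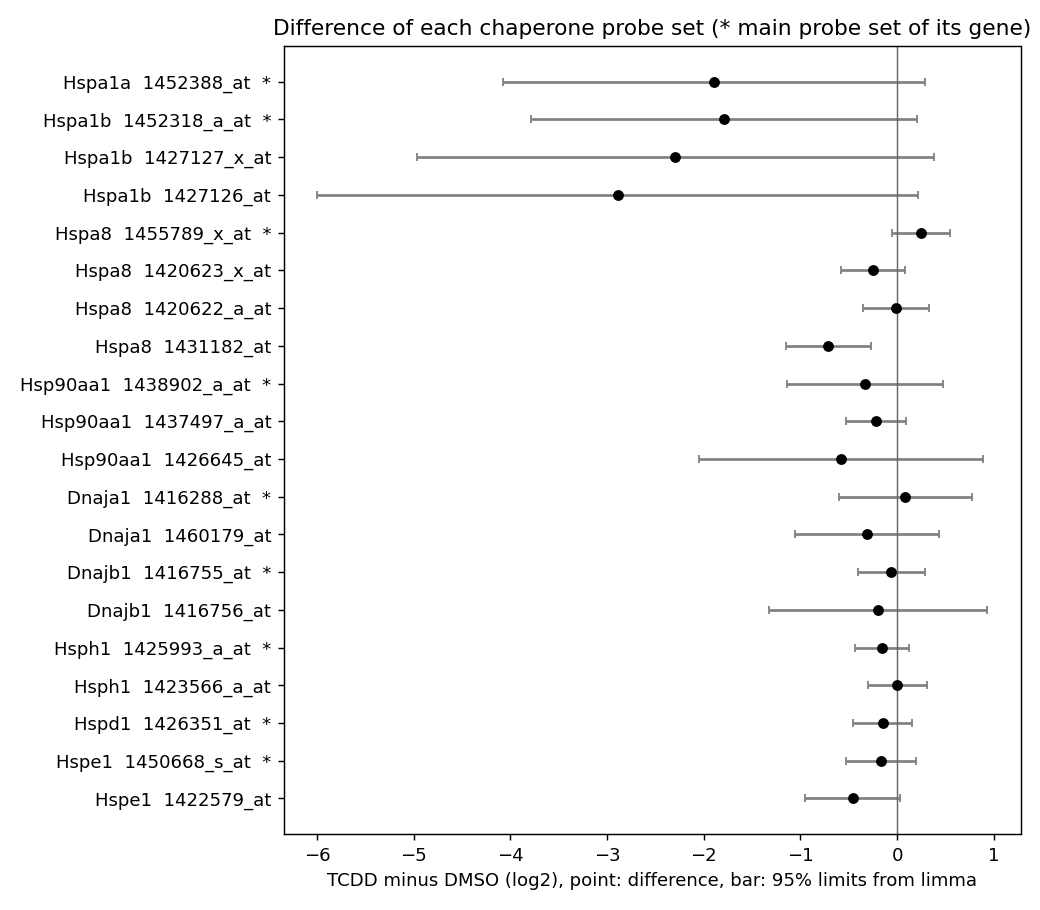
Difference between TCDD and DMSO cells for each of the 20 chaperone probe sets (x axis, TCDD minus DMSO in log2; rows, probe sets, with an asterisk for a gene's main one). Points are differences and bars 95% limits from limma with 2 arrays per group. The limits of 19 probe sets span 0, and those of Hspa8 probe set 1431182_at, from −1.15 to −0.27, do not.

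Within the arrays numbered 1, Hspa1a differed by −0.27 between TCDD and DMSO, and within those numbered 2 by −3.51. For the Hspa1b probe sets the differences were −0.37, −0.46 and −0.82 in the arrays numbered 1, and −3.21, −4.13 and −4.96 in those numbered 2. The direction was thus shared and the size was not. Without DMSO 2 the difference of Hspa1a was −0.68 and those of Hspa1b were −0.66, −0.755 and −1.085, and without DMSO 1 they were −3.10 for Hspa1a and −2.92, −3.835 and −4.695 for Hspa1b. None of these passed limma after adjustment.

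**Figure D3:**
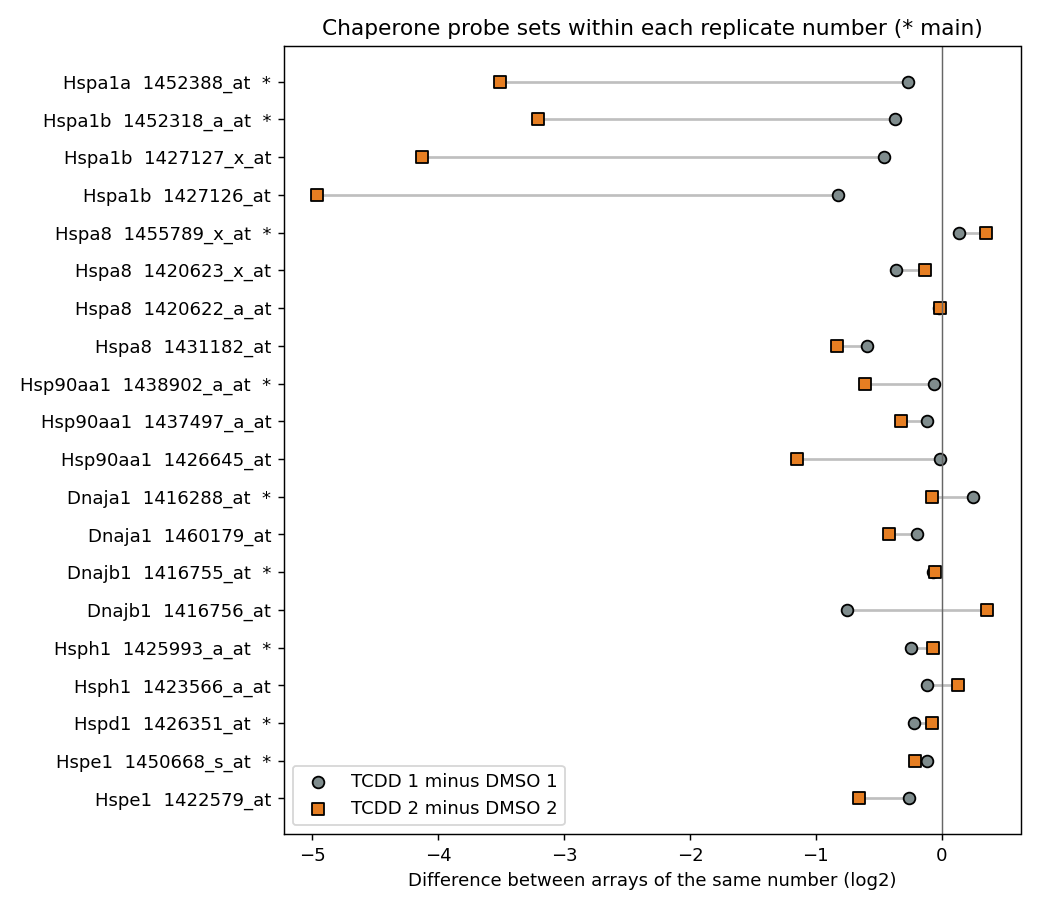
Difference between the TCDD and the DMSO array of the same replicate number (x axis, log2; grey circles, number 1; orange squares, number 2) for each of the 20 chaperone probe sets (rows). The 4 probe sets of Hspa1a and Hspa1b lie between −0.82 and −0.27 in number 1 and between −4.96 and −3.21 in number 2.

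DMSO 2 stood apart in few genes to this degree. Its value was at least 2-fold above that of every other array for 63 probe sets, or 0.278% of all, and the 4 probe sets of Hspa1a and Hspa1b were among the first 5 of all probe sets for this excess. The only other gene among those 5, S100a8, and the gene next in order, S100a9, encode the subunits of calprotectin, an abundant neutrophil protein. S100a8 measured 5.55 and 5.94 in the TCDD arrays, against 5.45 and 8.67 in the DMSO arrays, and S100a9 measured 5.0 and 5.63, against 4.61 and 7.80. The other measured neutrophil markers showed a smaller excess, with Camp at 6.04 and 6.23 against 6.25 and 6.52, and Ngp at 6.35 and 6.58 against 6.21 and 6.89. The mean level of the 4 neutrophil markers measured was 5.74 and 6.10 in the TCDD arrays, against 5.63 and 7.47 in the DMSO arrays. The part of such cells in the Hspa1a and Hspa1b values was not tested. An excess as large as that of Hspa1a and Hspa1b was not seen for the other 7 chaperone genes. Of their 16 probe sets, DMSO 2 lay below at least 1 other array for 11 and equalled the highest for 1. It lay above by 0.48 at most for the remaining 4. The probe set where it equalled the highest, Hsp90aa1 1437497_a_at, was at rank 5855 of 22626, so a small excess was common over all probe sets. The remaining 4 were at ranks 501 and 1648 (Hspe1 1422579_at and 1450668_s_at), 724 (Hspa8 1431182_at) and 4245 (Dnajb1 1416755_at).

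**Figure D4:**
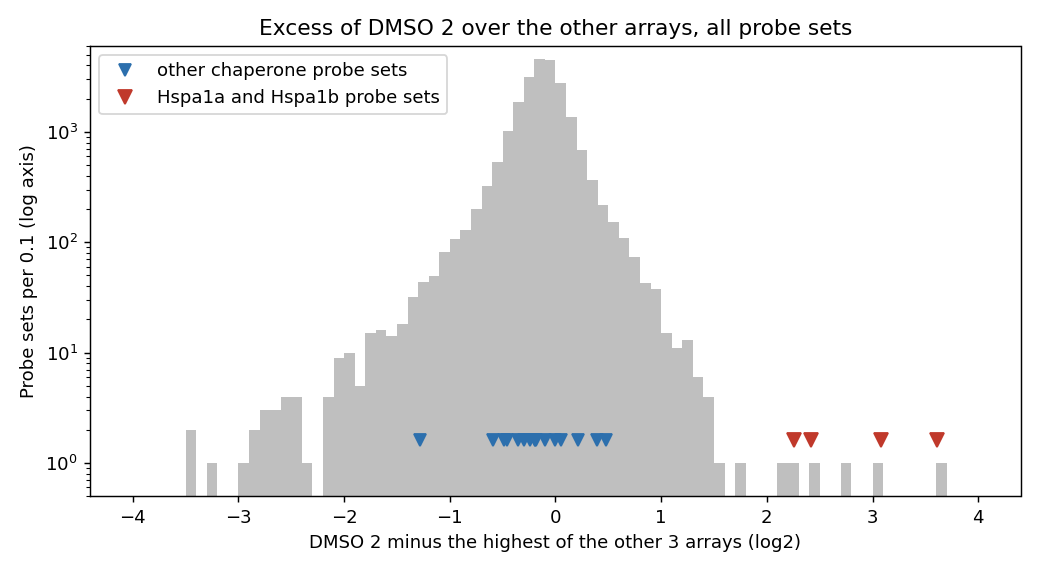
Excess of DMSO 2 over the highest of the other 3 arrays (x axis, log2) for all 22626 probe sets (y axis, number per bin of 0.1, log axis). Red triangles mark the 4 probe sets of Hspa1a and Hspa1b, at 2.26 to 3.61, and blue triangles the 16 probe sets of the other chaperone genes, at 0.48 or less.

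Hspa8 encodes the constitutive cytosolic HSP70, HSC70. Its main probe set, 1455789_x_at, measured 12.85 and 12.89 in the TCDD arrays, against 12.71 and 12.54 in the DMSO arrays. It was the only main probe set of the chaperones with both TCDD arrays higher, by 0.245 (95% limits −0.05 and 0.54). Its other probe sets did not share this direction. The probe set 1420623_x_at was lower, at 10.98 and 10.97 against 11.34 and 11.10, a difference of −0.245. The probe set 1420622_a_at measured 9.73 and 9.55 against 9.75 and 9.56, with overlapping groups and a difference of −0.015. The probe set 1431182_at measured 6.24 and 6.39 in the TCDD arrays, against 6.83 and 7.22 in the DMSO arrays. It differed by −0.71, which limma gave a p of 0.009331 before adjustment and of 0.9973 after it. The probe sets of this gene thus gave no common direction, and suffixes such as _x_at mark probe sets that can match more than 1 transcript.

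Hsp90aa1 encodes the more inducible of the cytosolic HSP90 proteins. Its main probe set, 1438902_a_at, measured 10.43 and 9.58 in the TCDD arrays, against 10.49 and 10.19 in the DMSO arrays, and the groups overlapped. Its difference was −0.335, with 95% limits of −1.14 and 0.47. The probe set 1437497_a_at had both TCDD arrays lower, at 9.39 and 9.19 against 9.51 and 9.51. The probe set 1426645_at measured 8.56 and 6.93 against 8.57 and 8.08. TCDD 2 was the lowest array for each of the 3. Without it the difference of the main probe set was 0.09 and that of 1426645_at was 0.235, so the direction of both rested on that array, while 1437497_a_at was at −0.12.

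Dnaja1 and Dnajb1 encode J-domain partners of HSP70, and Dnajb1 is itself a classical heat shock gene. Dnaja1 measured 10.41 and 9.74 in the TCDD arrays, against 10.16 and 9.82 in the DMSO arrays, by its main probe set 1416288_at. Its difference was 0.085 (95% limits −0.60 and 0.77), and its other probe set 1460179_at differed by −0.31. Both probe sets were higher in the arrays numbered 1 of each group, and the groups overlapped for both. Dnajb1 measured 9.62 and 9.82 in the TCDD arrays, against 9.69 and 9.87 in the DMSO arrays, by its main probe set 1416755_at. Its difference of −0.06 had fold limits of 0.755 and 1.22. Its other probe set, 1416756_at, measured 8.35 and 8.18 against 9.10 and 7.82. On neither probe set did Dnajb1 show the excess in DMSO 2 seen for Hspa1a and Hspa1b, and on the second DMSO 2 was the lowest array.

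Hsph1 encodes HSP110, a nucleotide exchange factor of HSP70. Its main probe set, 1425993_a_at, measured 10.27 and 10.34 in the TCDD arrays, against 10.51 and 10.41 in the DMSO arrays. Both TCDD arrays were lower, by a small amount on average (−0.155, 95% limits −0.43 and 0.12), and the fold limits were 0.740 and 1.09. Its other probe set, 1423566_a_at, lay below the median level of all probe sets, 6.01, at 5.13 and 5.19 against 5.25 and 5.06, and differed by 0.005.

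Hspd1 and Hspe1, the HSP60 and HSP10 subunits of the mitochondrial chamber, lay within a narrow range. Hspd1 measured 9.69 and 9.65 in the TCDD arrays, against 9.91 and 9.73 in the DMSO arrays, by its only probe set, 1426351_at. Both TCDD arrays were lower and the difference was −0.15 (95% limits −0.45 and 0.15, fold limits 0.731 and 1.11). Hspe1 measured 9.85 and 10.01 in the TCDD arrays, against 9.97 and 10.22 in the DMSO arrays, by its main probe set 1450668_s_at, with overlapping groups. Its difference was −0.165 (95% limits −0.53 and 0.20). Its other probe set, 1422579_at, had both TCDD arrays lower, at 6.86 and 6.94 against 7.12 and 7.60, and differed by −0.46 (95% limits −0.95 and 0.03).

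Apart from Hspa1a and Hspa1b, the 7 main probe sets differed by between −0.335 and 0.245. Of the 9 main probe sets, 7 were lower in the TCDD array within number 1, 8 within number 2, and 7 within both. The matching shares over all genes were not counted, so these counts cannot be called unusual. The median difference was −0.12 within number 1 and −0.08 within number 2, against −0.03 and 0.05 over the main probe sets of all genes. Without DMSO 2 the median over the chaperones was −0.205. Of the 7 genes with several probe sets, 3 (Hspa8, Dnaja1 and Hsph1) had probe sets that differed in sign.

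The genes around these chaperones are described from lists chosen by function, by their main probe sets. None of their members passed limma (adjusted p of 0.9973 or more for those named). Counts of genes with both TCDD arrays lower or higher are to be read against the 12.0% and 12.9% of all main probe sets given above. In the heat shock factor list, Hsf1 itself had no probe set of its own and was not measured. The 3 measured genes, Hsbp1, Hsf2 and Hsf4, all overlapped between the groups, with a median difference of −0.035. Only Hsbp1, which encodes a negative regulator of HSF1, lay above the median level, at 6.85 and 6.84 against 6.77 and 7.15. Of 26 measured co-chaperones and relatives of HSP70 and HSP90, both TCDD arrays were lower for 4 and higher for 2, and the median was 0.03. Dnajc2, a ribosome-associated J-domain protein, measured 8.17 and 7.76 in the TCDD arrays, against 7.97 and 8.84 in the DMSO arrays, a difference of −0.44 with overlapping groups. Without DMSO 2 it was −0.005, and the other 3 probe sets of Dnajc2 differed by −0.055, −0.055 and 0.19. Their mean levels were 7.68, 5.02 and 3.965, in that order. Fkbp4, an HSP90 co-chaperone of steroid receptor complexes, differed by 0.325, which was 0.105 without TCDD 2, and its other probe set by 0.05. The small heat shock proteins had a median of 0.045 over 7 genes, of which 1 was lower and 2 were higher in both TCDD arrays. Hspb1, at −0.17, and Hspb2, at 0.155, overlapped between the groups, and with 1 array left out they ran from −0.31 to −0.03 and from −0.165 to 0.475.

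The TRiC chaperonin, the cytosolic chamber that folds actin and tubulin, had a median of −0.09 over 8 subunits. Both TCDD arrays were lower for 2 subunits and higher for 0. Cct8 measured 7.84 and 7.22 in the TCDD arrays, against 7.97 and 8.23 in the DMSO arrays, and differed by −0.57, and Cct6a differed by −0.45 with overlapping groups. Without TCDD 2 these were −0.26 and −0.085. The other probe set of Cct8 differed by 0.025, at a mean level of only 3.94 where a change is hard to see. That of Cct6a differed by −0.27, at 9.49. The 10 mitochondrial chaperones and proteases had a median of −0.03, with 1 lower and 1 higher in both TCDD arrays. Lonp1, a protease of the mitochondrial matrix, measured 8.40 and 8.52 in the TCDD arrays, against 8.37 and 7.68 in the DMSO arrays. Its difference was 0.435, and 0.09 without DMSO 2. Clpp, a subunit of another such protease, was at −0.155 with overlapping groups, and at 0.145 without TCDD 1. The medians of these 5 lists of chaperones and their partners lay between −0.09 and 0.045, and with 1 array left out between −0.2 and 0.115. Differences between lists were not tested.

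**Figure D5:**
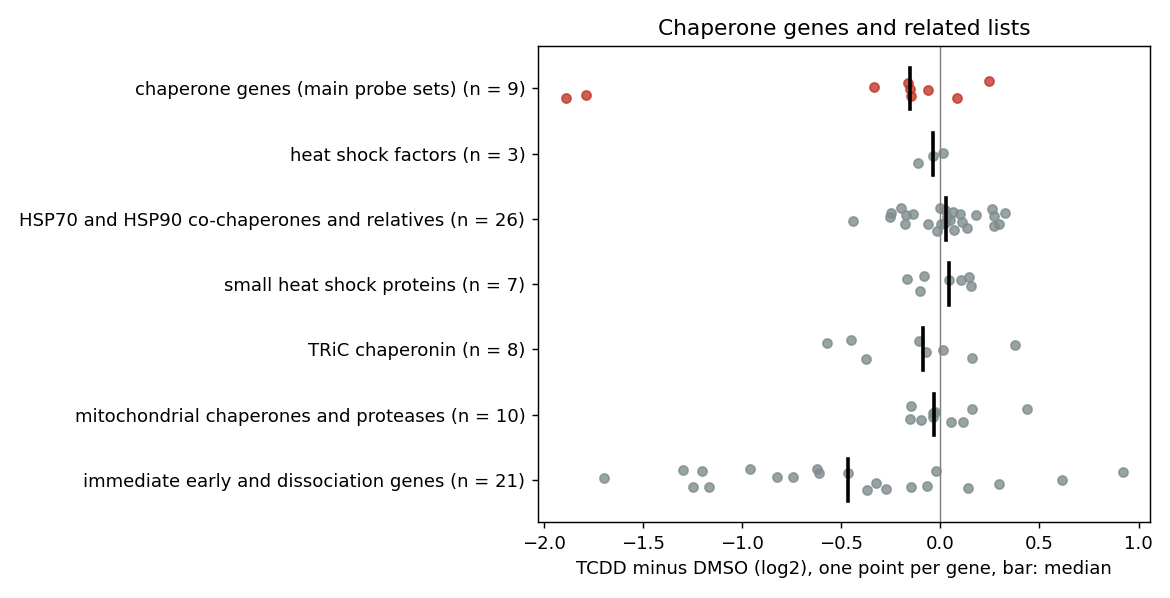
Difference between TCDD and DMSO cells for the main probe set of each gene (x axis, TCDD minus DMSO in log2; one point per gene), for the 9 measured chaperone genes in red and 6 lists in grey, with black bars at the medians. Hspa1a and Hspa1b, at −1.89 and −1.79, stand apart from the other 7 chaperones, and the immediate early list is the only other one with members below −1.

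Immediate early genes, which respond within minutes to stimulation and to the handling of tissue, are listed beside the chaperones because both kinds of gene react to stress. Over 21 measured genes the median difference was −0.465, with both TCDD arrays lower for 6 and higher for 1, against 12.0% and 12.9% of all main probe sets. The size of this median depended on single arrays, since it was −1.015 without TCDD 1, −0.09 without TCDD 2, −0.135 without DMSO 1 and −0.895 without DMSO 2. Fos, a subunit of the transcription factor AP-1, measured 10.51 and 10.13 in the TCDD arrays, against 12.00 and 12.03 in the DMSO arrays. Fosb measured 7.46 and 6.12 against 8.88 and 7.30, with overlapping groups. With 1 array left out the difference ran from −1.885 to −1.505 for Fos and from −2.09 to −0.51 for Fosb. The mean level of the list was 9.72 and 8.89 in the TCDD arrays, against 10.28 and 9.29 in the DMSO arrays. It was thus lower in the arrays numbered 2 of each group, whereas Hspa1a and Hspa1b were lower in TCDD 2 than in TCDD 1 and higher in DMSO 2 than in DMSO 1.

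The genes whose values over the 4 arrays were most like those of Hspa1a and Hspa1b were found by the root mean square distance between deviations from each gene's own mean, among 12384 other genes. The averaged deviations of Hspa1a and Hspa1b were −0.57 and −1.27 in the TCDD arrays, against −0.25 and 2.09 in the DMSO arrays. The nearest genes were Stxbp3 (distance 0.424), Peli1 (0.557), S100a8 (0.561), Canx (0.646) and Dnajc15 (0.708). Stxbp3, which encodes a vesicle fusion protein of the Munc18 family, measured 5.52 and 4.91 against 5.68 and 7.20, and Peli1, an E3 ubiquitin ligase gene, measured 9.21 and 9.13 against 9.52 and 10.93. Canx, which encodes the endoplasmic reticulum chaperone calnexin, measured 8.69 and 7.66 against 8.32 and 9.63, and Dnajc15, a mitochondrial J-domain protein gene, 7.66 and 7.30 against 7.74 and 8.79. The other probe sets of Stxbp3, Peli1 and Canx had DMSO 2 at most 0.23 above the highest other array, so the likeness was seen on single probe sets. Their mean levels were 5.38 for Stxbp3, 8.43 for Peli1, and 6.30 and 4.435 for Canx. A change is harder to see for those below the median level of 6.01. For scale, the root mean square size of the averaged pattern itself was 1.26, which is the distance of a gene with equal values on all arrays. With 4 arrays many genes can come close, and how many did was not counted.

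Facts of the whole series bear on these values as follows. The arrays had medians between 5.97 and 6.03, and Pearson correlations over all probe sets between 0.9806 and 0.9932, the highest between TCDD 1 and DMSO 1. All 6 defining T cell and CD8 markers (Cd8a, Cd8b1, Cd3d, Cd3e, Cd3g and Thy1) lay above the median level on average, with a mean level of 9.09 and 9.50 in the TCDD arrays, against 9.58 and 9.76 in the DMSO arrays. Of these 6 markers, 3 were lower in both TCDD arrays, where 12.0% of all main probe sets were. The B cell markers had mean levels of 6.80 and 6.95 against 6.90 and 6.66, and the monocyte and macrophage markers 6.25 and 6.40 against 5.94 and 6.29. The CD4 T cell, NK cell, dendritic cell, erythroid and stromal markers had median differences between −0.09 and 0.145. Log2 RMA values cannot show that a marker is absent.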

How the data were processed

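The authors' deposited log2 values came from RMA, per the submitters' processing notes, with no version named. As usually run, RMA corrects background, quantile normalises and combines probes into 1 value per probe set. That the scale is log2 was inferred from the deposited values, which ran from 3.09 to 14.62. RMA compresses differences near the low end. Of 22690 probe sets, 64 controls were left out. Genes were named from the platform annotation, matched by Entrez identifier to RefSeq on GRCm38.p6. In the annotation 20380 probe sets had 1 symbol, 691 several and 1555 were unnamed here. TCDD minus DMSO was fitted on 22626 probe sets and 4 arrays with limma 3.58.1 (lmFit and eBayes, no covariate, no filter) in R 4.3.3, with Benjamini-Hochberg adjustment over all and a threshold of 0.05. The step was tested on simulated data. The number of arrays limits the precision.

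The chaperones, lists and alternatives were chosen with earlier results of these data known, so lists are described by counts and medians without a test. The rule names every probe set of the chaperones, from each functional list the 2 genes with the largest difference among those above the median level of 6.01, and the 5 genes most like Hspa1a and Hspa1b. Fos, Fosb, S100a8, S100a9, Camp and Ngp are named by these lists or as markers. Cct5 is named outside the rule, as the other TRiC subunit with both TCDD arrays lower. Alternatives were median centring, a further quantile normalisation, a filter at the median level, a variance trend with robust fitting, gene means over probe sets, removal of probe sets with suffixes _x_at, _s_at or _a_at, a replicate block and each array left out, where the lone array of a group is assumed to vary like the other group.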

Additional observations from a re-analysis of the deposited data

How the results depend on the processing

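No chaperone probe set passed the adjusted threshold under any of the 11 alternatives, and the count over all probe sets was 0 in each of the 10 that refit them (lowest adjusted p 0.7954, without TCDD replicate 1). Of the 20 chaperone results, 11 kept their direction throughout, among them all 4 of Hspa1a and Hspa1b. The median over the chaperones, −0.155, was −0.121 after a further quantile normalisation, −0.52 without the suffixed probe sets (which leaves Hsph1 with none) and between −0.205 and −0.15 with 1 array left out. The count of genes whose groups did not overlap, 5, was between 6 and 8 with 1 array left out, which follows from fewer arrays in a group. With all 4 arrays it was 6 after median centring and 4 after a further quantile normalisation. The share over all genes was not taken under these alternatives. Hspa8 turned to −0.71 without suffixed probe sets and −0.18 for gene means, Dnaja1 to −0.11 for gene means, and Hsph1 probe set 1423566_a_at to −0.0012 after quantile normalisation, each through the choice of probe set or at a value near 0. With 1 array left out, Hsp90aa1 ran from −0.76 to 0.09 and its probe set 1426645_at from −1.395 to 0.235, Dnaja1 from −0.25 to 0.42 and its probe set 1460179_at from −0.65 to 0.03, Dnajb1 from −0.16 to 0.04 and its probe set 1416756_at from −0.835 to 0.445, Hspa8 probe set 1420622_a_at from −0.11 to 0.08, and Hsph1 probe set 1423566_a_at from −0.09 to 0.10. With the replicate block the median stayed at −0.155 and no call was made (lowest adjusted p 0.9942). Deviations of same-numbered arrays correlated at 0.2338 over probe sets, but with 2 pairs the arrays are known to share only a number.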

Other observations

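A few genes outside the lists had 1 probe set on which DMSO 2 also stood above the other arrays, chosen after their values were seen. The Pum2 probe set 1418015_at measured 4.57 and 4.63 in the TCDD arrays, against 4.59 and 6.43 in the DMSO arrays. Pum2 encodes an RNA-binding repressor of translation, and on its other 2 probe sets DMSO 2 was at most 0.06 above the highest other array. The Vcam1 probe set 1448162_at measured 4.90 and 5.10 against 4.53 and 6.58. Vcam1 encodes an adhesion molecule of endothelial and stromal cells, and its other 2 probe sets, both with a higher mean level, had DMSO 2 at 0.12 and −0.35 relative to the highest other array. The Slc35a5 probe set 1419971_s_at, of a nucleotide sugar transporter gene, measured 6.07 and 6.96 against 6.11 and 8.44. Of its other 4 probe sets 1 had DMSO 2 higher by 0.98, and the remaining 3 by 0.15 at most. The excess in these genes thus rested on single probe sets or on some of several, whereas all 4 probe sets of Hspa1a and Hspa1b showed it. Those 4 are not independent of each other, as said above, and Hspa1a has only 1 of them. S100a8 and S100a9 showed it on their only probe sets.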
